A study of Mus musculus with 8 samples.

Results

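The genes that make, modify and receive ghrelin were examined in whole ovaries of juvenile mice. They are *Ghrl*, *Ghsr*, *Mboat4*, *Lypla1*, *Bche* and *Pcsk1*, taken by their symbols as 6 of the 45583 gene symbols that were counted. Libraries came from female C57/Bl6 mice of 3 weeks, 4 WT and 4 GOAT KO, born to heterozygous parents as littermates and sequenced as 1 library per mouse. The GOAT KO line came from Regeneron and is described as lacking GOAT constitutively. The sources used here do not say which stretch of the gene is removed. The libraries carry animal numbers, 1118 to 1121 for WT and 1139, 1140, 1141 and 1146 for GOAT KO, and their reads on genes summed to between 16147216 and 19481798. The comparison asks whether the juvenile ovary expresses this machinery itself and whether its expression differs without GOAT.

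Ghrelin is a short peptide hormone, made mainly in endocrine cells of the stomach. Its precursor, the product of *Ghrl*, is cut by a prohormone convertase, the product of *Pcsk1*, and a serine near the start of the mature peptide is octanoylated by ghrelin-O-acyltransferase (GOAT), the product of *Mboat4*. Only the acylated form activates the growth hormone secretagogue receptor, the product of *Ghsr*, at low concentrations. Esterases can remove the acyl group again, among them butyrylcholinesterase (*Bche*) in plasma and acyl-protein thioesterase 1 (*Lypla1*), a cytosolic enzyme better known for taking palmitate off proteins.

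The candidate deacylating enzymes were expressed in every ovary, and the hormone, its acyltransferase, its convertase and its receptor were at or near the limit of detection. Over the 8 libraries *Lypla1* had 7159 reads and *Bche* 2996, against 33 for *Mboat4*, 14 for *Pcsk1*, 12 for *Ghrl* and 0 for *Ghsr*. Only *Lypla1* and *Bche* passed the filter on low counts and were tested with all genes, and neither was called different between WT and GOAT KO. In whole tissue, fewer cells of a type and less RNA per cell cannot be told apart.

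The *Ghrl* sequence shows which part of the precursor the few spliced reads reached. The gene lies on the - strand (GRCm38, chr6:113716119-113719880), and its transcript Ghrl-204 has 117 codons, of which 28, from codon 24 on, encode mature ghrelin (chr6:113719182-113719360, the intron inside included). The codon of the serine that GOAT acylates, codon 3 of the mature peptide, is in capitals, 5′ to 3′.
Mature ghrelin, 84 coding bases: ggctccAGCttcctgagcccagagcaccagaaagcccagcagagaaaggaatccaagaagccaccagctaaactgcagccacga

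An intron splits this stretch after base 39. In the junction sequences below, each of 30 coding bases, capitals mark the downstream exon. The junctions shown are those on which *Ghrl* reads fell, an alternative form of the first, and the one with most reads in *Lypla1*, *Bche* and *Pcsk1*.
Ghrl within the mature peptide (intron chr6:113719227-113719321, -): caccagaaagcccagCAGAGAAAGGAATCC
Ghrl-205, alternative acceptor (intron chr6:113719224-113719321, -): caccagaaagcccagAGAAAGGAATCCAAG
Ghrl next intron (chr6:113717162-113719109, -): gagctggagatcaggTTCAATGCTCCCTTC
Ghrl last intron (chr6:113716270-113717052, -): gggaagaggtcaaagAGGCGCCAGCTGACA
Lypla1 (intron chr1:4837075-4839386, +): ggaggattttctcagGGAGGCGCCTTGTCT
Bche (intron chr3:73648804-73700571, -): ttttgcaaaatatggACATCCCAATGGGAC
Pcsk1 (intron chr13:75110991-75112541, +): tatggtgtcaaacagGGGAGACAAGGGAAA

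Values per library are given in the order of the animal numbers. *Ghrl*, the hormone gene, had 1, 0, 2 and 3 reads in the WT libraries, and 2, 2, 1 and 1 in the GOAT KO libraries. No library stood apart, and the groups overlapped fully. Of its 12 reads, 6 fell in each group, so that the GOAT KO share was 50% (exact 95% binomial interval 21.1% to 78.9%, a range for counting error only). The level was 0.0838 ± 0.0696 CPM (counts scaled to library size by the TMM method) in WT (SD, n = 4) and 0.0878 ± 0.0384 CPM in GOAT KO (SD, n = 4). This difference lay within the spread of the libraries (exact permutation test, two-sided, p = 0.857).

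Spliced *Ghrl* RNA was listed in 4 of the 8 libraries. In all, 7 reads crossed annotated *Ghrl* junctions, 2 of them in WT 1120, 3 in WT 1121 and 1 each in GOAT KO 1139 and GOAT KO 1140. The junction inside the mature peptide had 4 reads, 2 each in WT 1120 and WT 1121. All 4 had the acceptor that keeps the CAG shown in capitals at the start of the downstream exon. None had the acceptor 3 bases further on that Ghrl-205 uses and that leaves out this glutamine codon. The next intron had 1 read each in WT 1121 and GOAT KO 1140, and the last intron had 1 read in GOAT KO 1139. These reads lie in coding sequence of the precursor, and their number is too small to compare the groups. The annotation places another gene antisense to *Ghrl*, and the strand used in counting is not given in the sources used here.

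Markers of the stomach, the main site of ghrelin, were low in the same libraries. The 10 stomach genes measured summed to between 1.42 and 1.81 CPM in WT and between 1.71 and 2.76 CPM in GOAT KO. *Gkn2* and *Tff1* were at 0 in all 8 libraries. *Atp4a*, a gastric proton pump subunit and the one stomach gene that passed the filter, had a log2 fold change of 0.52 (adjusted p = 0.983, edgeR's quasi-likelihood test). Whether reads from other tissue had a part in the *Ghrl* counts was not tested.

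*Ghsr*, the receptor gene (chr3:27371351-27378010, +), had no read in any of the 8 libraries and no junction read. A count of 0 allows up to 3 reads over the 8 libraries together, or 0.0213 CPM, which per kb of its 4433 exon bases is 0.00482 CPM per kb. Of pituitary markers, a tissue where *Ghsr* has a known role, *Prl* was at 0 in all 8 libraries, while *Lhb*, the luteinizing hormone beta subunit gene, and *Pomc* passed the filter, with 42 to 74 and 6 to 25 reads per library. The 8 pituitary genes summed to between 3.82 and 5.08 CPM in WT and between 3.14 and 4.86 CPM in GOAT KO. At this depth the receptor's transcript was not detectable in the juvenile ovary, with or without GOAT.

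*Mboat4*, the gene targeted in GOAT KO mice (chr8:34115030-34125182, +), had 1, 1, 1 and 3 reads in the WT libraries, and 5, 7, 7 and 8 reads in the GOAT KO libraries. All libraries labelled GOAT KO therefore had more reads than any labelled WT, the opposite of what loss of the whole gene would give. Since the stretch removed is not known here, reads outside it need not go against the labels, and each direction given here rests on the labels as deposited. This pattern, each GOAT KO library above each WT library, was found in 1.38% of the 27459 genes with at least 1 count. The level was 0.0840 ± 0.0531 CPM in the libraries labelled WT (SD, n = 4) and 0.388 ± 0.0736 CPM in those labelled GOAT KO (SD, n = 4). The exact permutation test gave p = 0.0286 (two-sided), the smallest p that 4 against 4 allow.

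*Mboat4* was under the filter on low counts. In the fit without that filter its log2 fold change was 2.09 (SE 0.53), with an unadjusted p of 0.00111 and an adjusted p of 0.721 over the 27459 genes (edgeR's quasi-likelihood test). The unadjusted p under 0.05 and log2 fold change over 0.5 were reached in the same direction by 1.5% of the genes in that fit. No read was listed on either of the 2 annotated introns of *Mboat4* and no library had an assembled transcript of it, so where in the gene these reads fell cannot be told. The annotation also places an antisense gene inside *Mboat4*, so that its reads cannot be told apart from those of *Mboat4* if the strand was not used.

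The neighbours of *Mboat4* were measured with more reads. *Gm10131*, the nearest tested gene on its left at 3293 bases, had 2.11 ± 0.293 in WT and 2.41 ± 0.331 CPM in GOAT KO (SD, n = 4 each), a log2 fold change of 0.19 (SE 0.17, adjusted p = 0.983, edgeR). *Leprotl1*, the nearest on its right at 10390 bases and on the opposite strand, had between 695 and 994 reads per WT library and between 372 and 472 per GOAT KO library. *Leprotl1*, a regulator of growth hormone receptor levels at the cell surface, was lower in every GOAT KO library than in any WT library. GOAT KO over WT, the log2 fold change came to -1.06 (SE 0.085, adjusted p = 0.000487, edgeR).

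*Pcsk1*, the convertase gene (chr13:75089826-75134861, +), had 1, 0, 1 and 0 reads in the WT libraries, and 3, 1, 6 and 2 in the GOAT KO libraries. Most of its 14 reads, 12, were in GOAT KO (85.7%, exact 95% binomial interval 57.2% to 98.2%, for counting error only), 6 of them in GOAT KO 1141, and the groups met at 1 read. The level was 0.0292 ± 0.0338 CPM in WT (SD, n = 4) and 0.166 ± 0.106 CPM in GOAT KO (SD, n = 4). The exact permutation test gave p = 0.0571 (two-sided), and without GOAT KO 1141 the difference fell from 0.137 to 0.0897 CPM. In the fit without a filter the log2 fold change was 2.32 (SE 0.89, unadjusted p = 0.0188, adjusted p = 0.839, edgeR). A single read, in GOAT KO 1141, crossed a *Pcsk1* junction, 1 of its 14 annotated introns.

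**Figure D1:**
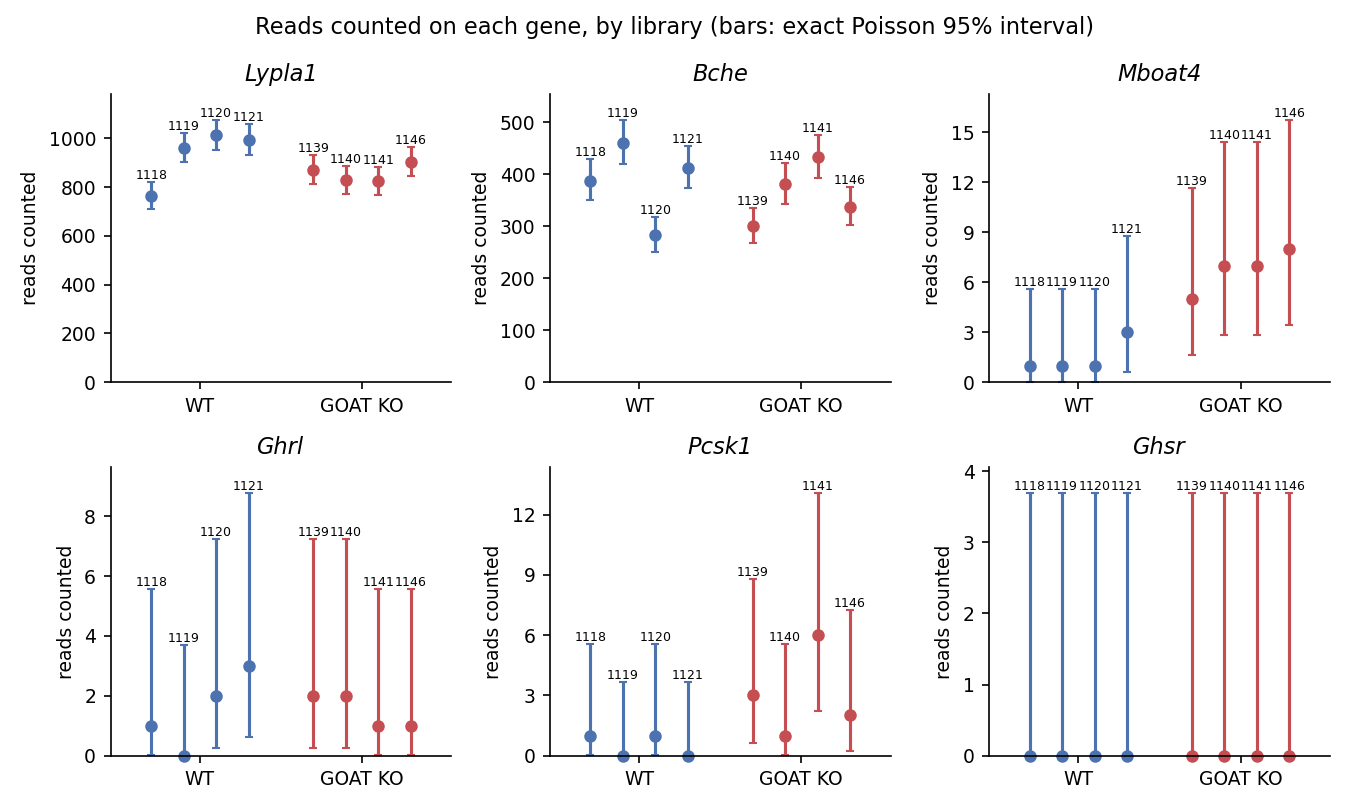
Reads counted on each of the 6 genes (y axis) in the 4 WT (blue) and 4 GOAT KO (red) libraries, each point labelled with the animal number and with its exact Poisson 95% interval, which covers counting error only. *Lypla1* has 764 to 1012 reads and *Bche* 283 to 461, the groups overlapping in both, while *Mboat4* has 1 to 3 reads in WT and 5 to 8 in GOAT KO and *Ghsr* has none.

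*Lypla1*, which encodes acyl-protein thioesterase 1 (chr1:4807788-4848410, +), had 764, 961, 1012 and 994 reads in the WT libraries, and 871, 828, 824 and 905 in the GOAT KO libraries. Scaled to library size, GOAT KO 1141 was lowest at 42.2 CPM and WT 1120 highest at 55.5 CPM, and the other 6 libraries lay between 47.3 and 54.2 CPM. The level was 52.6 ± 3.63 CPM in WT (SD, n = 4) and 49.4 ± 4.87 CPM in GOAT KO (SD, n = 4). The log2 fold change of *Lypla1* was -0.09 (SE 0.084, 95% interval -0.30 to 0.11, adjusted p = 0.983, edgeR's quasi-likelihood test), a difference not larger than the spread between libraries. The exact permutation test of the CPM gave p = 0.371 (two-sided).

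*Bche*, the butyrylcholinesterase gene (chr3:73635808-73708415, -), had 388, 461, 283 and 413 reads in the WT libraries, and 300, 381, 433 and 337 in the GOAT KO libraries. The lowest level of each group was in WT 1120, at 15.5 CPM, and in GOAT KO 1139, at 17.9 CPM. The other 6 libraries lay between 19.6 and 25.6 CPM. The level was 21.9 ± 4.45 CPM in WT (SD, n = 4) and 20.7 ± 2.42 CPM in GOAT KO (SD, n = 4). For *Bche* the log2 fold change was -0.08 (SE 0.15, 95% interval -0.44 to 0.28, adjusted p = 0.986, edgeR), and p = 0.657 in the exact permutation test (two-sided).

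The libraries were also scaled in 2 dimensions by the 500 genes that differed most between each pair. GOAT KO 1139 lay apart from its group, and WT 1118 and WT 1120 lay on opposite sides of the other 2 WT libraries. GOAT KO 1139 held most of the adipose signal, with 96.7 CPM of *Adipoq*, an adipocyte hormone, against 0.291 to 2.99 CPM in the other 7 libraries. A further fit left out WT 1120 and GOAT KO 1139. This pair was chosen here, as the study's text does not name the libraries it left out. In that fit the log2 fold change of *Lypla1* was -0.095 and that of *Bche* -0.15. Without WT 1119 alone the log2 fold change of *Bche* was 0.00095, and without WT 1120 alone it was -0.22, so the direction for *Bche* rested on single libraries.

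None of the 2 members tested was called under either rule, and 0 had an unadjusted p under 0.05 by edgeR, DESeq2 or limma-voom. Over all 16601 genes tested, 0.0241%, or 4 genes, had an adjusted p under 0.05, against 14 genes without GOAT KO 1139. The study's rule, which asks for an unadjusted p under 0.05 and a log2 fold change beyond 0.5 in either direction, was met by 1.67%. The study applied it after leaving out 1 library of each group, which its text does not name, and here it was applied to all 8.

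Spliced reads were frequent in *Lypla1* and fewer in *Bche*. *Lypla1* had 1412 junction reads on 8 of its 14 annotated introns, with 135, 188, 184 and 186 in the WT libraries and 131, 157, 237 and 194 in the GOAT KO libraries. Scaled to 1000000 junction reads of each library this was 60.7 ± 5.97 in WT (SD, n = 4) and 62.4 ± 11.0 in GOAT KO (SD, n = 4), p = 0.8 in the exact permutation test (two-sided). Over the 5 introns listed in all 8 libraries, a choice made after the lists were seen, the values were 55.3 ± 4.49 and 55.8 ± 9.53 (exact permutation test, p = 0.943).

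*Bche* had 100 junction reads on 4 of its 6 annotated introns, with 25, 16, 0 and 15 in the WT libraries and 7, 21, 16 and 0 in the GOAT KO libraries. WT 1120 and GOAT KO 1146 listed no *Bche* junction although they had 283 and 337 reads on the gene. The deposited lists thus leave out junctions of expressed genes in some libraries, and an unlisted junction says nothing about a transcript. On the same scale the exact permutation test of *Bche* gave p = 0.743 (two-sided). It took unlisted junctions as 0, so it cannot tell whether spliced *Bche* differed between the groups. StringTie transcripts matched to annotated *Lypla1* were listed in 7 of the 8 libraries and to *Bche* in 5, and transcripts on the same strand overlapping each gene were assembled in all 8. There were none of *Ghrl*, *Ghsr*, *Mboat4* or *Pcsk1*.

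**Figure D2:**
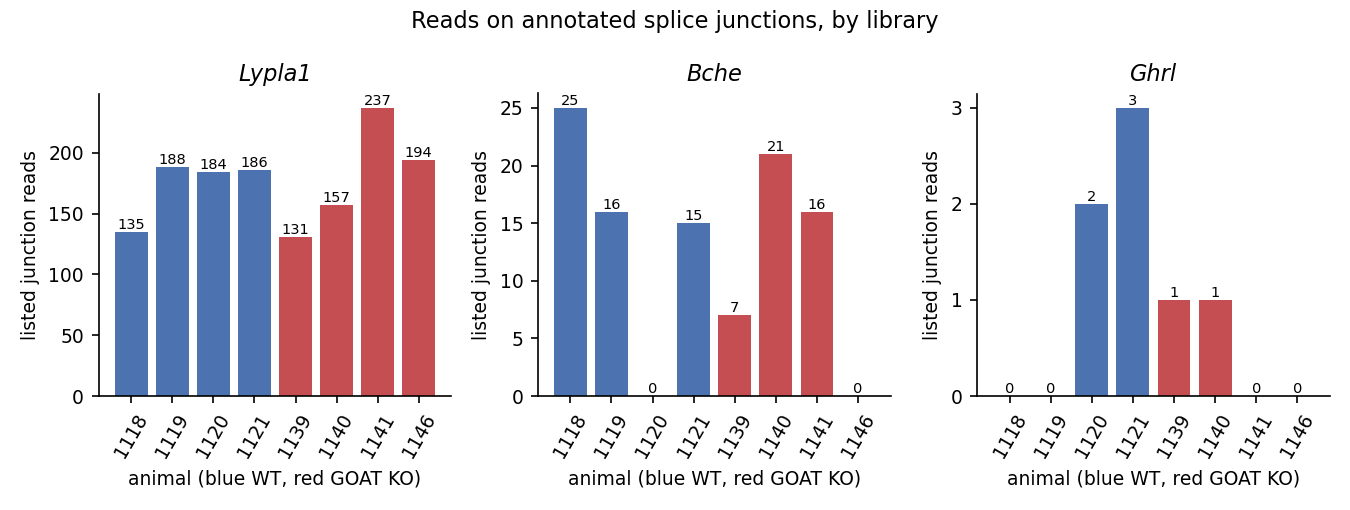
Reads listed on annotated splice junctions (y axis) of *Lypla1*, *Bche* and *Ghrl* in each library (x axis, animal numbers; blue WT, red GOAT KO). *Lypla1* has 131 to 237 in every library, *Bche* has 0 in WT 1120 and GOAT KO 1146, and *Ghrl* has 1 to 3 in 4 libraries.

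Levels were compared between genes per kb of exon. *Lypla1* was highest at 7.14 ± 0.607 CPM per kb over the 8 libraries (SD, n = 8), rank 7646 of the 41852 genes with a known length, and close to 6.70, the median of all genes tested. *Bche* followed at 3.16 ± 0.501 CPM per kb (SD, n = 8), and its highest library, at 3.80, lay under the lowest of *Lypla1*, at 5.90. *Mboat4* had 0.128 ± 0.0941 CPM per kb over the 8 libraries, and by group 0.0457 in those labelled WT, against 3.25 for *Bche*, and 0.211 in those labelled GOAT KO, against 3.08.

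*Ghrl* came next at 0.0795 ± 0.0483 CPM per kb (SD, n = 8), then *Pcsk1* at 0.0174 ± 0.0184 and *Ghsr* at 0. The libraries of *Mboat4* and *Ghrl* overlapped, as did those of *Ghrl* and *Pcsk1* and those of *Pcsk1* and *Ghsr* over the 8 libraries. The place of *Mboat4* rested on the libraries labelled GOAT KO. By WT means *Ghrl*, at 0.0777 CPM per kb, lay above *Mboat4*, at 0.0457, and by GOAT KO means it lay below, at 0.0814 against 0.211. *Ghrl* ranked 19221 and *Pcsk1* 22619 of the 41852 genes. With the length of the longest transcript in place of all exons, *Lypla1* stood at 11.4 CPM per kb and *Bche* at 3.44.

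Olfactory receptor genes, which an ovary should lack, gave the background. Of the 1251 with a known length, 1118 had no read in any library. The 99th percentile of their mean levels over the libraries was 0.0860 CPM per kb. The highest of them, at 2.70 CPM per kb, did not reach the mean level of *Lypla1* or *Bche*. *Bche* lay under it in WT 1120, at 2.30, and in GOAT KO 1139, at 2.66. The mean level of *Mboat4* was reached by 8 olfactory receptor genes, that of *Ghrl* by 14, or 1.12%, and that of *Pcsk1* by 33, or 2.64%. *Ghrl* and *Pcsk1* thus lay above most but under the top of these genes. Of the *Mboat4* libraries labelled WT only WT 1121, at 0.0891 CPM per kb from 3 reads, lay above the 99th percentile.

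**Figure D3:**
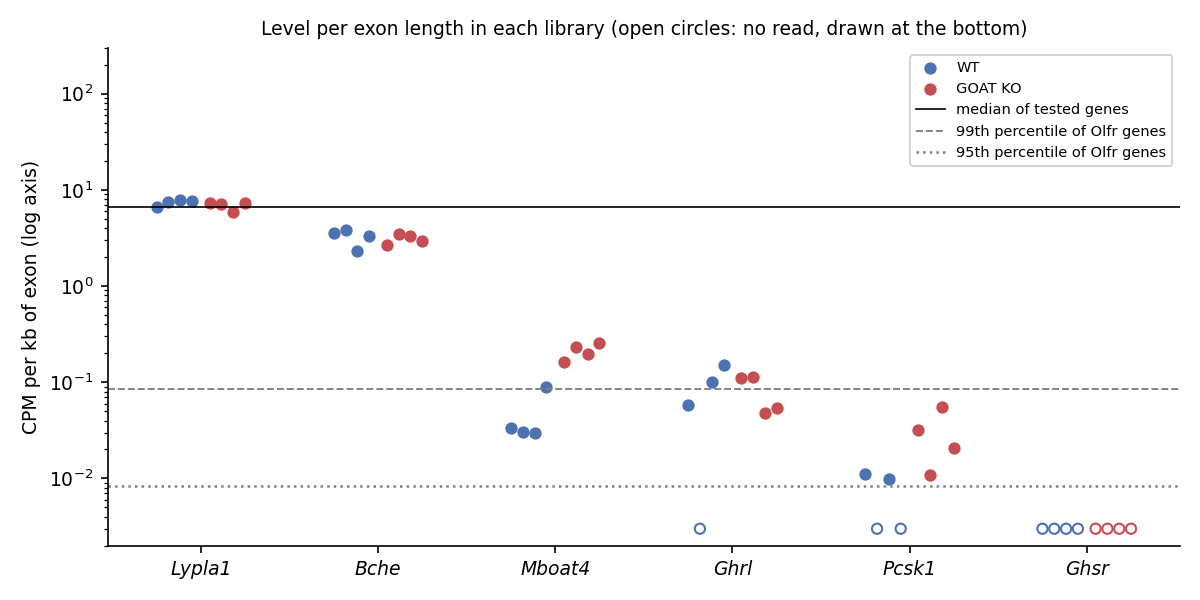
Level of each gene in CPM per kb of exon (y axis, logarithmic) in the WT (blue) and GOAT KO (red) libraries; open circles at the bottom are libraries with no read. *Lypla1* lies at the median of tested genes (6.70, solid line). Dashed and dotted lines are the 99th (0.0860) and 95th (0.00826) percentiles of the olfactory receptor genes, taken over their mean levels. *Ghrl* lies above the dashed line in 4 of 8 libraries, each with only 2 or 3 reads, and *Pcsk1* under it in all 8.

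The tissue matched its label. All 10 oocyte markers and all 8 granulosa cell markers passed the filter, and the granulosa cell genes summed to between 4813 and 5988 CPM in WT and between 5423 and 6087 CPM in GOAT KO. Under the study's rule 6 of 7 tested adipose genes were called higher in GOAT KO, or 1 of 7 without WT 1120 and GOAT KO 1139. Of the other marker lists, the stomach list had *Atp4a* called, and oocyte, granulosa cell, theca, surface epithelium, endothelium, macrophage, glia, oviduct, pituitary and blood lists had 0 genes called. Without those 2 libraries the granulosa cell list had 2 called higher, *Fshr*, the follicle-stimulating hormone receptor gene, and *Cyp19a1*, the aromatase gene, both named after their values were seen, with log2 fold changes of 0.68 and 1.39 (adjusted p = 0.144 and 0.422, edgeR). With all 8 libraries these were 0.47 and 0.22, and *Cyp19a1* had 65.0 CPM in WT 1120 against 5.06 to 9.70 CPM in the other WT libraries. Under that setting 398 of all genes met the rule, against 278 with all 8 libraries.

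Of 97 other genes of the pathway that were counted, 72 passed the filter and 1 of these, 1.39%, was called under the study's rule, with none at an adjusted p under 0.05. At an unadjusted p under 0.05 there were 3 of these 72 by edgeR, against 767 of all 16601 genes tested. DESeq2 called 0 and limma-voom 1 under the study's rule, and neither called any at an adjusted p under 0.05. Their median log2 fold change was 0.017, against -0.00035 over all genes tested.

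On the receptor side, levels ranged widely among the partners and among the signalling genes. Among 12 measured ligands, receptor partners and related receptors, 3 passed the filter, 0 were called, and the median log2 fold change was -0.04. *Ghr*, the growth hormone receptor gene, was the highest at 184 ± 54.1 in WT and 179 ± 33.0 CPM in GOAT KO (SD, n = 4 each). *Mrap2*, which encodes an accessory protein of the ghrelin receptor, had 1.38 ± 0.520 in WT and 1.42 ± 0.819 CPM in GOAT KO. *Gpr39*, a zinc receptor gene of the ghrelin receptor family, had 1.83 ± 0.220 and 1.52 ± 0.458 CPM. *Drd2*, a dopamine receptor gene, had 0.0874 ± 0.0793 and 0.0579 ± 0.0501 CPM and was not tested. *Leap2*, which encodes an antagonist of the ghrelin receptor, was at 0 in all 8 libraries.

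All 17 signalling genes passed the filter, 0 were called, and their median log2 fold change was -0.03. *Ucp2*, a mitochondrial carrier gene, had 448 ± 34.8 in WT and 439 ± 26.0 CPM in GOAT KO (SD, n = 4 each). *Itpr1*, an inositol trisphosphate receptor gene, had 446 ± 90.6 and 426 ± 28.7 CPM. *Cpt1a*, which brings long-chain fatty acids into mitochondria, and *Camkk2*, a kinase upstream of AMPK, had log2 fold changes of 0.05 and 0.15. *Plcb4*, a phospholipase C gene chosen after its values were seen, had the only unadjusted p under 0.05, with a log2 fold change of -0.30 (unadjusted p = 0.0454, adjusted p = 0.983, edgeR).

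On the acylation side, the relatives of *Mboat4* were all counted, at levels that differed widely. The 10 other membrane-bound O-acyltransferase genes passed the filter, 0 were called, and their median log2 fold change was -0.05. *Soat1*, a cholesterol acyltransferase gene, had 757 ± 26.9 in WT and 679 ± 91.9 CPM in GOAT KO (SD, n = 4 each). The phospholipid acyltransferase genes *Mboat2*, *Mboat7* and *Lpcat3* had log2 fold changes of -0.09, -0.13 and 0.06. Of 15 genes that supply or use medium-chain acyl-CoA, the donor of the octanoyl group, 10 passed the filter, 0 were called, and the median was 0.02. *Acadl*, *Acadm* and *Acads*, dehydrogenase genes of long-, medium- and short-chain acyl-CoA, had 143, 95.2 and 77.3 CPM over the 8 libraries, with log2 fold changes of 0.02, -0.04 and 0.06. *Cpt2*, a carnitine palmitoyltransferase gene, had 0.01.

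On the deacylation side, 15 of 25 other thioesterase and esterase genes passed the filter, 1 was called, and their median log2 fold change was 0.06. *Lypla2*, the closest relative of *Lypla1*, had 1015, 1047, 1353 and 1044 reads in the WT libraries and 1106, 902, 1133 and 971 in the GOAT KO libraries, with a log2 fold change of -0.10 (SE 0.094). *Ppt1*, a lysosomal palmitoyl-protein thioesterase gene, was the highest at 177 CPM over the 8 libraries, with 0.12. *Abhd13* and *Abhd17a*, of the alpha/beta hydrolase family, had -0.03 and 0.08.

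The called gene was *Ces1d*, a carboxylesterase gene, with 1.18, 1.67, 2.09 and 1.74 CPM in the WT libraries and 23.0, 1.34, 2.20 and 1.92 CPM in the GOAT KO libraries. Only GOAT KO 1139, the library with most adipose signal, lay apart, and the log2 fold change of 2.07 (SE 0.85, adjusted p = 0.983, edgeR) was 0.25 without it and WT 1120. The 8 adipose genes summed to between 65.7 and 85.3 CPM in WT and between 70.3 and 707 CPM in GOAT KO, the last of these in GOAT KO 1139, and none of them was at 0 in all 8 libraries.

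On the processing side, 17 of 18 genes passed the filter, 0 were called, and their median log2 fold change was 0.04. *Cpe*, a carboxypeptidase gene for trimming prohormones, was the most abundant at 971 ± 59.6 in WT and 988 ± 60.1 CPM in GOAT KO (SD, n = 4 each). *Mbtps1* and *Cpd*, a proprotein convertase and a carboxypeptidase gene, had log2 fold changes of 0.05 and 0.02, and *Pam*, a peptide-amidating enzyme gene, had 0.02. *Pcsk5*, a widely expressed convertase gene named after its values were seen, had a log2 fold change of 0.16 (unadjusted p = 0.0253, adjusted p = 0.983, edgeR).

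**Figure D4:**
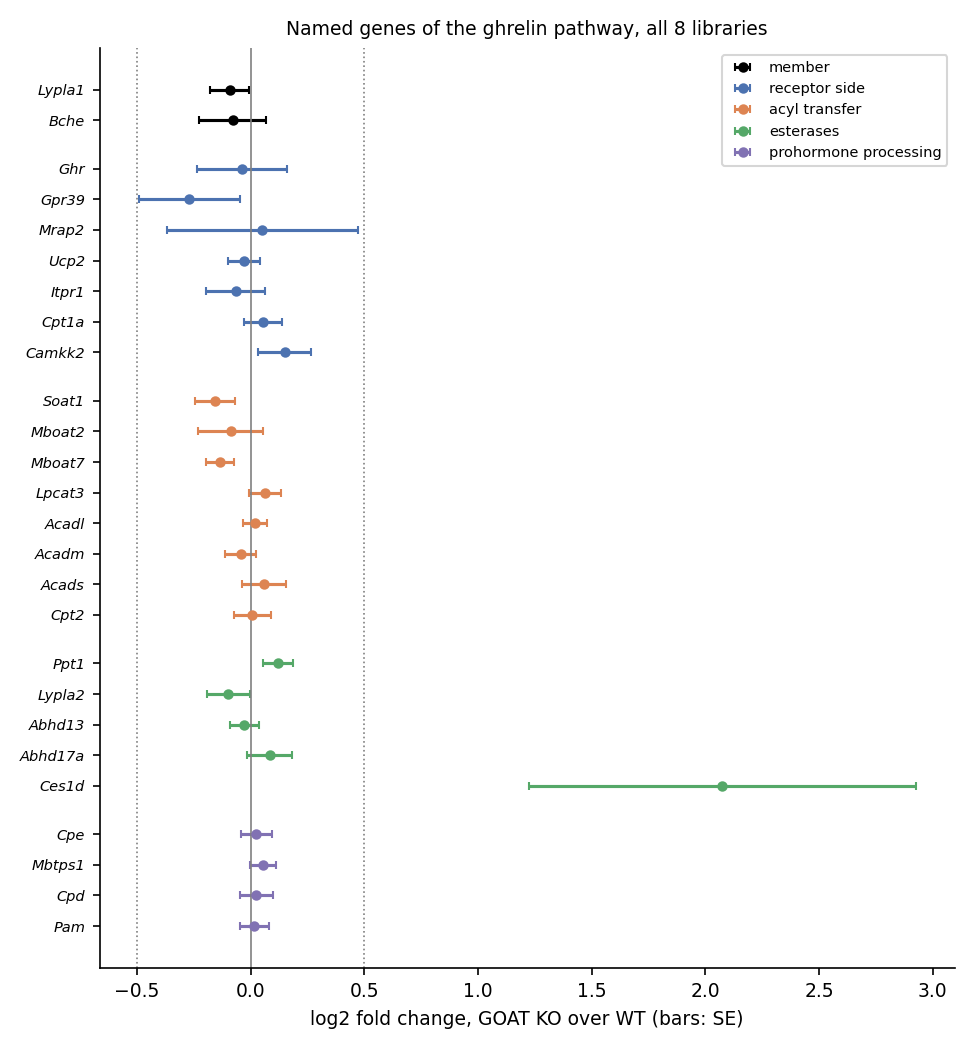
Log2 fold change of GOAT KO over WT (x axis, bars are SE, dotted lines at -0.5 and 0.5) for *Lypla1* and *Bche*, the tested genes among the 4 highest of each pathway list by CPM, and the called gene *Ces1d*, all 8 libraries. *Ces1d*, at 2.07, is the one gene plotted past the lines.

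The genes with the profile most like each tested member were found by the root mean square difference of centred log2 CPM over the 8 libraries. For *Lypla1* these were *Naf1* (0.033), *Selt* (0.034) and *Pin1rt1* (0.036), where the spread of *Lypla1* itself on that scale was 0.12. All 3 were lowest in GOAT KO 1141, as was *Lypla1*. For *Bche* they were *Vps13d* (0.048), *Fam126b* (0.052) and *Rictor* (0.053), against a spread of 0.22. Like *Bche*, all 3 were lowest in WT 1120 and next lowest in GOAT KO 1139.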

How the data were processed

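The authors aligned cleaned 50-base single reads of 8 ovary libraries to the mouse genome (mm10, GRCm38) with TopHat2 2.0.14 and assembled transcripts with StringTie 1.0.4, with GENCODE as the guide. They deposited counts of reads per gene symbol, without normalization, and counts of reads across each splice junction. The percent of reads that mapped was computed by the authors, and the score of their assembled transcripts is a constant, as deposited, so the transcripts served for positions only. The counting tool and its use of the strand are not given in the sources used here. Between 85.92% and 87.02% of reads mapped.

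Counts were tested with edgeR 4.0.16 in R 4.3.3 (TMM scaling, filterByExpr with at least 10 counts, quasi-likelihood test, Benjamini-Hochberg over all genes tested), a procedure that was first tested on simulated data. CPM are TMM-scaled, SE is the log2 fold change over the square root of F, and 95% intervals use the t quantile with 6 residual degrees of freedom. Single genes were compared by exact permutation of libraries. P-values of single genes were not adjusted over the members, since the members and lists were chosen with earlier results of these data known. Positions, lengths and sequences come from GENCODE vM21 (GRCm38), a later release than the authors used, and 91.8% of symbols matched a length. Likeness used a pseudocount of 0.1 CPM. No 2 libraries of a group agreed within sampling noise (chi-square per gene 4.21 to 27.0), so each is 1 replicate.

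Named were the members, of each of 6 pathway lists the called genes and up to 4 others by mean CPM, the nearest tested genes beside *Mboat4*, and the 3 genes most like each tested member. Of the lists, 1 gene is not reported here and was left out of the list counts. Others are said to be chosen after their values were seen or answer a count of few genes. Alternatives were RLE factors, DESeq2 1.42.0, limma-voom (limma 3.58.1), no filter, plain library totals, the longest transcript, all junctions, and leaving libraries out.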

Additional observations from a re-analysis of the deposited data

Results flagged for a closer look

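In *Mboat4*, WT 1121 stood apart from the other 3 libraries labelled WT, at 0.164 CPM (3 reads against 1 in each). Among 10 groups of 4 libraries examined, chance gives such a gap in about 1 in 20 for values without ties, and more often for counts as low and tied as these.

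Transcripts assembled outside the annotation lay downstream of *Mboat4* only in the libraries labelled GOAT KO. On the + strand, between the end of *Mboat4* and 1000 bases before *Saraf*, 8 were assembled in GOAT KO, with 2, 3, 1 and 2 in GOAT KO 1139, 1140, 1141 and 1146, and 0 in each of the 4 WT libraries. The first began between 20763 and 20767 bases past the end of *Mboat4* in all 4 GOAT KO libraries, a place that lies inside *Leprotl1* on the opposite strand. In GOAT KO 1141, 4 reads joined this place to *Saraf* across a junction (intron chr8:34146082-34161194). This region was chosen after its values were seen, no test was made, and its relation to the *Mboat4* counts was not tested.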

How the results depend on the processing

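Counting error limits *Mboat4*, *Ghrl* and *Pcsk1*, which have at most 8 reads in a library, and junction lists are incomplete. No analysis paired by litter was possible because the labels do not give the litter of each animal. Genes with an adjusted p under 0.05 numbered 13 by DESeq2, 7 without a filter and 20 without WT 1120 and GOAT KO 1139, and between 3 and 14 with each library left out (14 without GOAT KO 1139). Under the study's rule there were 691 without a filter and 231 to 437 with each library left out (437 without WT 1120). Without a filter 2 of the 5 members with reads, *Mboat4* and *Pcsk1*, met that rule, beside 691 of the 27459 genes in that fit. Neither had an adjusted p under 0.05 (0.721 and 0.839, edgeR). The log2 fold change of *Bche* ranged from -0.22 to 0.00095 (reversed without WT 1119) and its CPM difference, GOAT KO minus WT, from -3.31 to 0.050. For *Lypla1* the ranges were -0.14 to -0.03 and -5.01 to -0.849. The difference for *Ghrl* ranged from -0.0240 to 0.0306 CPM, for *Mboat4* from 0.278 to 0.333 and for *Pcsk1* from 0.0897 to 0.172. The *Lypla1* level was 11.4 CPM per kb with the longest transcript. Pathway genes called without WT 1120 and GOAT KO 1139 were 1 in receptor signalling (*Camkk1*) and 0 among esterases. Without a filter they were 1 O-acyltransferase gene (*Hhatl*) and 2 esterase genes (*Ces1d* and *Ces1f*). The causes were not tested. Of 195 alternative values, 177 kept their direction and their side of the threshold or stayed within the spread.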
